A study of Mus musculus with 6 samples.

Results

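The genes of myeloid cells and osteoclasts studied here, 10 in all, are Ptprc, Laptm5, Csf1r, Cd68, Lyz2, C1qa, Tyrobp, Fcer1g, Acp5 and Ctsk. They were followed in RNA-seq libraries of newborn mouse skeletal cells as a check for other cells in the preparations. The genes were chosen by symbol, and all 10 were found among the 23364 symbols of the deposited table, on 14 of its 31055 transcripts. Osteoblasts, bone-forming cells, were sorted by GFP from the calvaria, the skull roof, after release with Liberase TM, and carry the genotype label Sp7 positive (3 libraries). Chondrocytes, cartilage cells, came from the rib after digestion with Pronase plus Collagenase D and carry the genotype label WT (3 libraries), with no sort named for them. All cells came from C57BL/6 mice at postnatal day 1, and nothing in the labels says that replicates came from separate litters or animals, so p-values measure only the spread between these libraries, which may be technical. The sources used here do not name the allele that carries GFP. Cell type, body site, sorting, genotype and enzyme all go with the group and cannot be told apart.

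Myeloid cells are the white blood cells of the monocyte, macrophage and granulocyte lines. Osteoclasts are giant cells that resorb bone, and they form by fusion of monocyte-like precursors under the cytokines Csf1 and RANKL, which osteoblasts and other stromal cells supply. Macrophages lie among the cells of bone surfaces, and cartilage proper holds few or no blood-derived cells, so transcripts of these genes in a preparation of skeletal cells can report such neighbours. Some of the genes are less strict: Ctsk is also known in cells of the periosteum and perichondrium, the sheaths of bone and cartilage.

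Sequence was set beside the members before their values. RefSeq promoter windows of build GRCm38.p6 were on hand for 7 of the 10 genes, in 10 windows, and Csf1r, C1qa and Tyrobp were not among them. The 250 bases before each start site were searched on both strands for GAGGAAG (the motif of PU.1, the master regulator of myeloid cells), TCANNTGA (the motif of MITF and TFE factors, which act in osteoclasts and on lysosomal genes) and TGACTCA (the motif of AP-1). The PU.1 motif stood in 2 of 10 windows, against 10.6% of 32851 windows of all genes. The MITF motif stood in 2 of 10 windows, against 7.09% of all, and the AP-1 motif in 1 of 10, that of Cd68, against 4.46%. These matches overlapped no other motif searched, and a match is a description of letters, not a site in use. A few windows are shown 5′ to 3′ with matches in capitals: those of Ctsk and Laptm5 because they hold the PU.1 motif, and 2 of the 3 Acp5 windows because its 2 leading transcripts start at separate sites. The Ctsk window lies at chr3:95498960-95499209 on the plus strand, with PU.1 matches that begin at -233 and -59 from the start site and a MITF match at -136. The Laptm5 window lies at chr4:130913066-130913315 on the plus strand, with 1 PU.1 match at -39. The Acp5 window of transcript NM_001102404 lies at chr9:22131866-22132115 on the minus strand and held none of the motifs. The Acp5 window of transcript NM_007388 lies at chr9:22130599-22130848 on the minus strand, with a MITF match at -91.
Ctsk: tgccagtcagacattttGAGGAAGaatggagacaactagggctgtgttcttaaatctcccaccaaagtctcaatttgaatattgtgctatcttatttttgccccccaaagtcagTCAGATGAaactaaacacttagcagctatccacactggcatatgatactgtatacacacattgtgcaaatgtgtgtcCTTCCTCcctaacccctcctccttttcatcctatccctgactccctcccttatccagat
Laptm5: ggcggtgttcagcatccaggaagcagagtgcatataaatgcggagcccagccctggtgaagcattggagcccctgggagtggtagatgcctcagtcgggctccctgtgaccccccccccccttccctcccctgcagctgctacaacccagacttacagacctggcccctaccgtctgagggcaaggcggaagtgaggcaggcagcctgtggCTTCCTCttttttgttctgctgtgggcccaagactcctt
Acp5 (NM_001102404): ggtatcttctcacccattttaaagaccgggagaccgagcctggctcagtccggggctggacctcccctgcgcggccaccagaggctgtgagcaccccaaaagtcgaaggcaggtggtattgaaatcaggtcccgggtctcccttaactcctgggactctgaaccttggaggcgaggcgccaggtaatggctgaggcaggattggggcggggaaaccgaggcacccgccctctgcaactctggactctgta
Acp5 (NM_007388): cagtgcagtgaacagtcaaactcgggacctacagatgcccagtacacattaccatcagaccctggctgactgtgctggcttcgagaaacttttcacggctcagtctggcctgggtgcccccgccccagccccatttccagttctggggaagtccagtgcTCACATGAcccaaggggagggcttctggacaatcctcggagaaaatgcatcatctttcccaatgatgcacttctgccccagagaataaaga

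Values are RPKM, read numbers corrected for transcript length and library depth, summed over the transcripts of a symbol. From the steps of low values, 1 RPKM in a transcript of 2 kb was estimated to stand for 53.9 to 71.8 reads, depending on the library. The markers followed the labels: 8 of 8 osteoblast markers were higher in osteoblasts, with Sp7 at 115, 108 and 134 RPKM against 0.911, 2.31 and 1.10 RPKM in chondrocytes, and 8 of 8 chondrocyte markers were lower. Col2a1, the main cartilage collagen, was at 23.7, 35.5 and 33.1 RPKM in osteoblasts and 37318, 48028 and 26727 RPKM in chondrocytes. Chondrocyte replicates 2 and 3 each stood apart for some genes. Chondrocyte replicate 3 had 7765 RPKM of Col1a1, the type I collagen of bone and fibrous tissue, against 2270 and 2259 RPKM in replicates 1 and 2. Among chondrocyte libraries it was the highest for 11 of 12 fibroblast and perichondrium genes and 10 of 10 endothelial genes, and the lowest for 7 of 8 chondrocyte markers. Of all 11218 genes tested, 46.9% were highest and 15.2% lowest in this library. The members' results are also given without replicate 3. Chondrocyte replicate 2 stood apart for other genes. It had 46.6 RPKM of Matn1, against 3.12 and 3.10 RPKM in replicates 1 and 3, and 996 RPKM of Acan, against 504 and 464 RPKM.

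All 10 members were higher in each osteoblast library than in any chondrocyte library, and in chondrocytes all 10 were highest in replicate 3. Complete separation in this direction was common: it held for 48.1% of the 17935 genes above the table's floor. The 8 members other than Acp5 and Ctsk together summed to 28.7, 32.2 and 34.7 RPKM in osteoblasts, against 3.87, 1.72 and 12.6 RPKM in chondrocytes. Their levels were low, and in bulk RNA fewer cells of a type and less RNA per cell cannot be told apart. A gene was tested where 3 or more libraries reached 1 RPKM, which left 9 of the 10 members, all but Ptprc. All 9 were called higher in osteoblasts by limma on log2(RPKM + 1) at a Benjamini-Hochberg adjusted p under 0.05, beside 55.5% of all 11218 genes called higher and 13.5% called lower. Cd68 reached 1 RPKM in osteoblast libraries only, and 6 others had just chondrocyte replicate 3 beside them, which builds in part of the direction, so that count supports nothing by itself. The median log2 difference of all tested genes was 0.43, and it was 0.04 when libraries were scaled by median of ratios, where 3630 genes were higher and 3290 lower instead of 6224 and 1512, a split of 52.5% higher instead of 80.5%. The 9 tested members lay above that median of 0.43 by 0.56 (Acp5) to 1.66 (Lyz2). For all but Acp5 and Ctsk the filter builds in part of this excess as well.

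**Figure D1:**
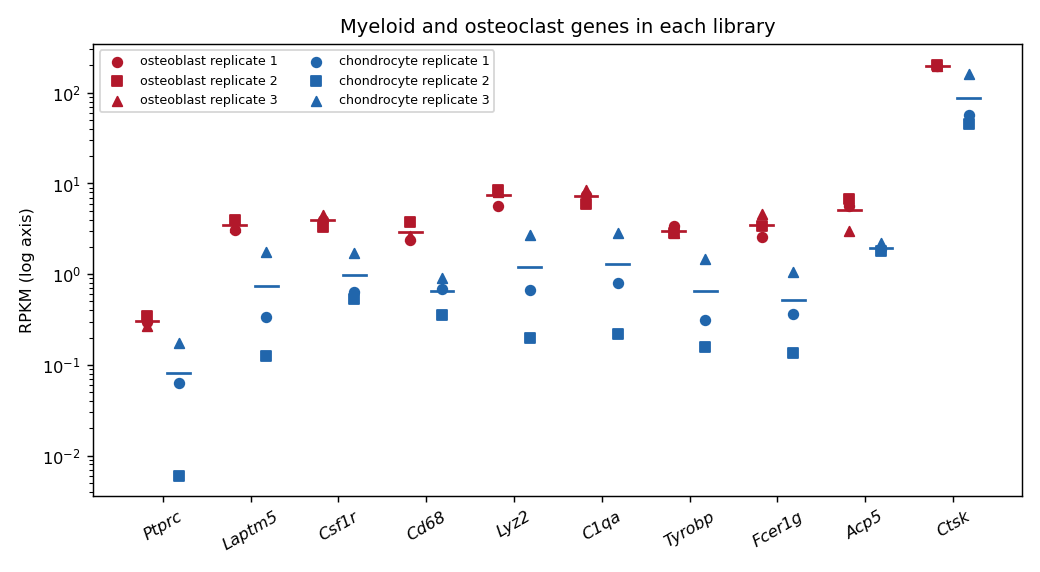
RPKM of the 10 members in each library on a log axis, osteoblasts left (red) and chondrocytes right (blue), with a bar at each group mean (n = 3). Every osteoblast point lies above every chondrocyte point of the same gene, and the triangle of chondrocyte replicate 3 is the highest blue point throughout.

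Of the general leukocyte genes, Ptprc encodes CD45, the tyrosine phosphatase on the surface of nucleated blood cells. It stood at 0.297, 0.345 and 0.270 RPKM in osteoblasts, against 0.0631, 0.00600 and 0.175 RPKM in chondrocytes. The groups did not overlap, but the exact two-sided permutation test of 3 against 3 cannot go below p = 0.1, the value it gave. With no filter on low values it differed by 0.27 ± 0.06 on the log2 scale (SE; limma, adjusted p = 0.00918), where 41.9% of 17935 genes were called higher and 11.0% lower. The table lists 3 Ptprc transcripts, and NM_011210 held an estimated 47.9, 51.0 and 11.2 reads in osteoblasts and 3.3, 0.3 and 29.1 reads in chondrocytes. In osteoblast replicate 3 and in chondrocyte replicates 1 and 2, NM_001268286 held more, at 22, 6.4 and 0.6 reads, so the division between these transcripts changed from library to library. Laptm5, a lysosomal membrane protein of blood cells and the gene of the second window shown above, stood at 3.09, 3.95 and 3.32 RPKM in osteoblasts, against 0.335, 0.124 and 1.74 RPKM in chondrocytes. The groups did not overlap, and chondrocyte replicate 3 lay well above replicates 1 and 2. On the log2 scale the difference was 1.47 ± 0.31 (SE; limma, adjusted p = 0.00431). The means were 4.71-fold apart, and 15.1-fold apart without chondrocyte replicate 3.

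Of the macrophage genes, Csf1r encodes the receptor of Csf1, on which monocytes, macrophages and osteoclast precursors depend. It stood at 3.96, 3.33 and 4.51 RPKM in osteoblasts, against 0.644, 0.528 and 1.73 RPKM in chondrocytes. These values rest on the most reads of the blood-cell members with a known length, an estimated 530.4, 433.1 and 469.8 in osteoblasts and 83.7, 68.8 and 240.3 in chondrocytes. The log2 difference was 1.37 ± 0.23 (SE; limma, adjusted p = 0.00131), and the ratio of means was 4.06, or 6.70 without chondrocyte replicate 3. Cd68, a lysosomal glycoprotein that marks macrophages, stood at 2.37, 3.79 and 2.64 RPKM in osteoblasts, against 0.678, 0.353 and 0.911 RPKM in chondrocytes. Its chondrocyte libraries lay closer together than those of the other blood-cell members, with a coefficient of variation of 43.3%, and its log2 difference was 1.25 ± 0.18 (SE; limma, adjusted p = 0.000613). The ratio of means was 4.53, or 5.69 without chondrocyte replicate 3.

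Lyz2, the lysozyme of macrophages and granulocytes, stood at 5.62, 8.52 and 8.15 RPKM in osteoblasts, against 0.675, 0.197 and 2.68 RPKM in chondrocytes. With a log2 difference of 2.10 ± 0.39 (SE; limma, adjusted p = 0.00231) it had the largest difference of the 9 tested members, and its ratio of means was 6.27, or 17.1 without chondrocyte replicate 3. Its near-identical neighbour Lyz1 was listed at 0.137, 0.141 and 0.295 RPKM in osteoblasts and at the table's floor in 2 of 3 chondrocyte libraries, and the sources used here do not say how reads were divided between these copies. C1qa, the A chain of the complement component C1q, which tissue macrophages secrete, stood at 7.46, 5.97 and 8.44 RPKM in osteoblasts, against 0.797, 0.219 and 2.85 RPKM in chondrocytes. The log2 difference was 2.01 ± 0.38 (SE; limma, adjusted p = 0.00267), and the ratio of means was 5.65, or 14.4 without chondrocyte replicate 3. An estimated 7.7 reads stood behind the lowest value, in chondrocyte replicate 2. The B and C chains of the same protein, C1qb and C1qc, had log2 differences of 1.79 and 2.12 (limma, adjusted p = 0.00220 and 0.00242).

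Tyrobp (DAP12) and Fcer1g (the Fc receptor gamma chain) are small membrane adaptors that pass signals from immune receptors through an immunoreceptor tyrosine-based activation motif (ITAM), and together they are needed for osteoclast formation. Tyrobp stood at 3.36, 2.83 and 2.81 RPKM in osteoblasts, against 0.315, 0.157 and 1.47 RPKM in chondrocytes (log2 difference 1.36 ± 0.27 SE; limma, adjusted p = 0.00321). Its short transcript of 564 bases gave an estimated 65.7, 53.6 and 42.7 reads in osteoblasts and 6.0, 3.0 and 29.9 reads in chondrocytes. Fcer1g stood at 2.58, 3.42 and 4.55 RPKM in osteoblasts, against 0.361, 0.135 and 1.06 RPKM in chondrocytes (log2 difference 1.60 ± 0.25 SE; limma, adjusted p = 0.000950). In osteoblasts Tyrobp was highest in replicate 1 and Fcer1g in replicate 3, while in chondrocytes both were highest in replicate 3 and lowest in replicate 2. The ratio of means was 4.62 for Tyrobp and 6.80 for Fcer1g, or 12.7 and 14.2 without chondrocyte replicate 3.

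Acp5 and Ctsk, both enzymes that osteoclasts secrete, had the smallest ratios of means among the 10 members. Acp5 encodes tartrate-resistant acid phosphatase, the enzyme stained to find osteoclasts, and stood at 5.59, 6.78 and 3.03 RPKM in osteoblasts, against 1.90, 1.80 and 2.20 RPKM in chondrocytes. It was the most variable member among osteoblasts, with a coefficient of variation of 37.3%, and the least variable among chondrocytes, with 10.6%. The ratio of means was 2.61, and 2.78 without chondrocyte replicate 3, with a log2 difference of 1.00 ± 0.23 (SE; limma, adjusted p = 0.00651). Most reads went to transcript NM_001102404, with an estimated 262.8, 269.8 and 108.1 in osteoblasts and 69.4, 74.6 and 103.8 in chondrocytes. Transcript NM_007388, whose window holds the MITF match shown above, had 0.1, 38.3 and 2.2 reads in osteoblasts and 16.7, 6.6 and 2.9 reads in chondrocytes.

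Ctsk encodes cathepsin K, the collagen-degrading cysteine protease of osteoclasts, and stood at 197, 205 and 196 RPKM in osteoblasts, against 56.6, 45.0 and 162 RPKM in chondrocytes. By mean RPKM it ranked 206 of 23364 genes in osteoblasts and 352 in chondrocytes, whereas the other 9 members ranked from 5758 to 12619 in osteoblasts. The osteoblast libraries varied by 2.41% (coefficient of variation) and the chondrocyte libraries by 73.4%, with replicate 3 close to the osteoblasts. The ratio of means was 2.27, or 3.92 without that library. The log2 difference was 1.40 ± 0.43 (SE; limma, adjusted p = 0.0211) and 1.96 without chondrocyte replicate 3 (limma, adjusted p = 2.33e-05). The call was lost without any one of the other 5 libraries: adjusted p was 0.0585, 0.0610 and 0.0579 without osteoblast replicates 1, 2 and 3, and 0.0699 and 0.0834 without chondrocyte replicates 1 and 2. It was also lost under median-of-ratios scaling, with a log2 difference of 0.95 and an adjusted p of 0.0785. Chondrocyte replicate 3 held 3.19 times the mean Ctsk of replicates 1 and 2. The same ratio ran from 0.729 (Fn1) to 4.31 (Tnmd) over the 12 fibroblast and perichondrium genes, with 3.43 for Col1a1, 1.55 for Dcn and 1.35 for Pdgfra, and from 1.19 (Acp5) to 7.59 (Laptm5) over the other members, with 2.95 for Csf1r. The part of fibrous tissue cells in the Ctsk values was not tested.

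**Figure D2:**
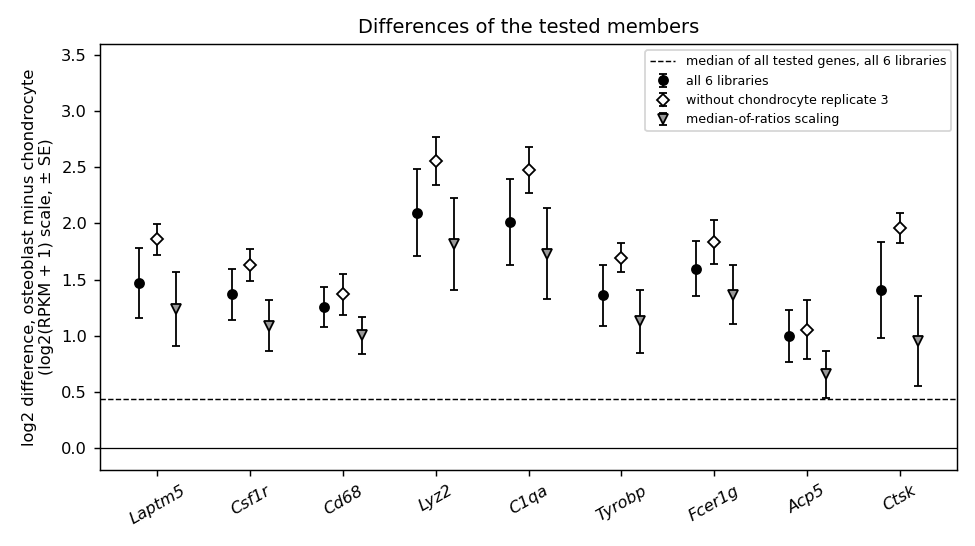
Log2 differences (osteoblast minus chondrocyte, log2(RPKM + 1) scale, ± SE) of the 9 members that passed the filter, with all 6 libraries, without chondrocyte replicate 3 and with median-of-ratios scaling. All points lie above 0 and above the dashed median of all tested genes (0.43), in part through the filter for all but Acp5 and Ctsk. Leaving out chondrocyte replicate 3 moves Ctsk the farthest, to 1.96 against 1.40 with all libraries.

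The order of the levels set Ctsk apart at the top and Ptprc at the bottom. In osteoblasts the means ran Ctsk 199, Lyz2 7.43, C1qa 7.29, Acp5 5.13, Csf1r 3.93, Fcer1g 3.52, Laptm5 3.45, Tyrobp 3.0, Cd68 2.94 and Ptprc 0.304 RPKM. Between Lyz2 and Cd68, each gene's 3 libraries overlapped those of its neighbour in this order. In chondrocytes the means ran Ctsk 87.9, Acp5 1.96, C1qa 1.29, Lyz2 1.19, Csf1r 0.968, Laptm5 0.733, Tyrobp 0.649, Cd68 0.647, Fcer1g 0.518 and Ptprc 0.0814 RPKM, where Acp5 came next after Ctsk and, below Ctsk, every neighbouring pair overlapped. Divided by Csf1r in the same library, C1qa was at 1.88, 1.79 and 1.87 in osteoblasts and at 1.24, 0.415 and 1.65 in chondrocytes. Tyrobp was at 0.849, 0.850 and 0.624 times Csf1r in osteoblasts and at 0.489, 0.298 and 0.852 in chondrocytes. Chondrocyte replicate 3 thus came within or near the osteoblast range for these genes, and replicate 2 lay farthest below it. Ctsk ran the other way, at 49.8, 61.6 and 43.5 times Csf1r in osteoblasts and 87.9, 85.2 and 93.7 times Csf1r in chondrocytes. Acp5 was at 1.41, 2.04 and 0.672 times Csf1r in osteoblasts and 2.94, 3.41 and 1.27 in chondrocytes.

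**Figure D3:**
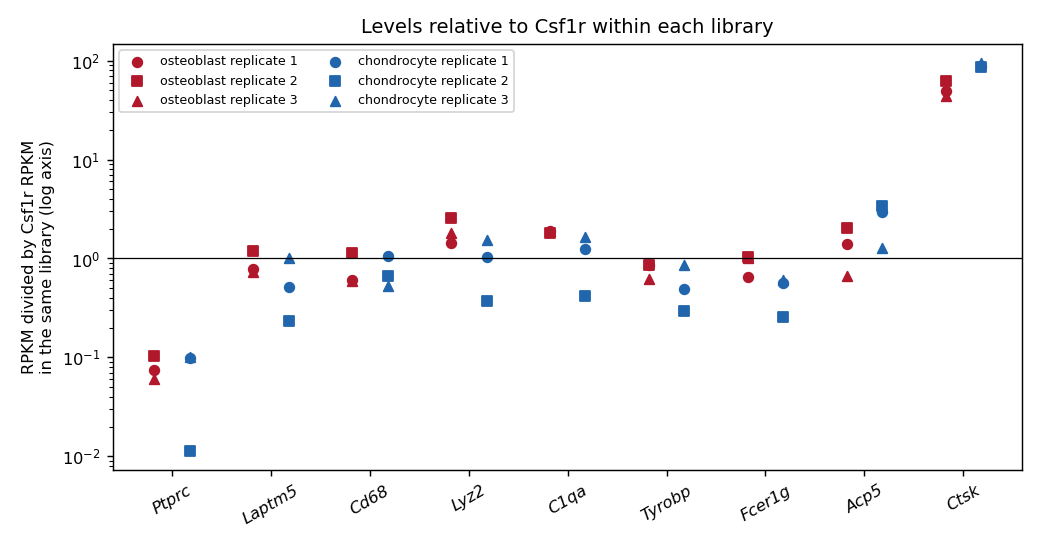
RPKM of 9 members divided by that of Csf1r in the same library (log axis), osteoblasts left and chondrocytes right, 1 point per library. Ctsk lies at 43.5 to 61.6 in osteoblasts and 85.2 to 93.7 in chondrocytes, and Ptprc, Laptm5, Lyz2, C1qa, Tyrobp and Fcer1g are lowest in chondrocyte replicate 2.

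Other genes of the same cells were read from lists that did not include the members, with log2 differences of called genes in parentheses (limma, adjusted p under 0.05). Of 22 other macrophage and monocyte genes only 8 passed the filter: 6 were higher in osteoblasts and 1 was lower, beside 55.5% and 13.5% of all tested genes. The 6 were C1qb, C1qc, Mrc1 (the mannose receptor, 1.33), Ctss (cathepsin S, 1.37), Emr1 (the F4/80 antigen, 0.78) and Sfpi1 (PU.1 itself, 0.95). Ctss, Emr1 and Sfpi1 reached 1 RPKM in osteoblast libraries only, and C1qb, C1qc and Mrc1 had just chondrocyte replicate 3 beside them, so the filter builds in part of this direction too. Sfpi1 stood at 1.32, 1.24 and 1.5 RPKM in osteoblasts, against 0.134, 0.0224 and 0.564 RPKM in chondrocytes. Cd14, the co-receptor for bacterial lipopolysaccharide, went against the list at 1.91, 1.88 and 1.43 RPKM in osteoblasts and 5.95, 4.06 and 5.15 RPKM in chondrocytes (log2 difference -1.14; limma, adjusted p = 0.000382). Fcgr3, an activating IgG receptor, was not called (0.56; limma, adjusted p = 0.154), at 1.66, 1.71 and 1.86 RPKM in osteoblasts and 0.483, 0.329 and 2.28 RPKM in chondrocytes. The whole list summed to 28.6 to 35.6 RPKM in osteoblasts and 5.70 to 18.9 RPKM in chondrocytes. Without a filter 17 of 22 were higher and 1 was lower, beside 41.9% and 11.0% of all genes, with a median of 0.59 against 0.15 for all 17935 genes, and 21 of the 22 were highest in replicate 3 among chondrocytes. With any one osteoblast library left out, 5 genes passed the filter and 3 were higher.

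Of 16 other general leukocyte genes 3 passed the filter and 2 were higher, near the 55.5% of all tested genes: Coro1a, an actin-binding protein (0.94), and Arhgdib, an inhibitor of small GTPase cycling (1.40). Lcp1, another actin-binding protein, was not called (0.57; limma, adjusted p = 0.0522). Arhgdib was no low-level gene, at 56.5, 56.9 and 59.7 RPKM in osteoblasts and 22.7, 20.2 and 21.1 RPKM in chondrocytes, with no excess in chondrocyte replicate 3. The list summed to 64.3 to 67.1 RPKM in osteoblasts and 21.7 to 26.2 RPKM in chondrocytes. Arhgdib made up most of each sum, so the sums do not show the level of the other genes. Without a filter 13 of 16 were higher, beside 41.9% of all genes. Of 16 genes that work with the ITAM adaptors 5 passed and 3 were higher, again near 55.5%, among them the kinase Lyn (1.96) and the scaffold Lcp2 (1.26). Lcp2 stood at 1.32, 1.67 and 1.49 RPKM in osteoblasts, against 0.0445, 0.0001 (the floor) and 0.0666 RPKM in chondrocytes. Syk, the kinase that binds the ITAM, averaged 0.466 RPKM in osteoblasts and 0.0484 RPKM in chondrocytes. Without a filter 11 of 15 were higher, beside 41.9% of all genes. With any one osteoblast library left out only Plcg2 and Fcgr3 passed, so that the 3 called genes were no longer tested. Fcgr1, Fcgr3 and Trem2 stand also in the macrophage list, and Oscar in that of osteoclasts.

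Of 14 other osteoclast genes 6 passed the filter. Of these 5 were higher in osteoblasts and 1 was lower, beside 55.5% and 13.5% of all tested genes. Mmp9, a gelatinase, stood at 4.33, 5.06 and 3.18 RPKM in osteoblasts, against 0.0285, 0.114 and 0.186 RPKM in chondrocytes (2.21). Itgb3, the beta 3 integrin, stood at 6.45, 5.73 and 5.27 RPKM in osteoblasts, against 0.854, 0.976 and 0.814 RPKM in chondrocytes (1.85). Both reached 1 RPKM in osteoblast libraries only. Tcirg1, Clcn7 and Ostm1, parts of the acid secretion machinery that many cells use for lysosomes, differed by 1.36, 0.84 and 1.22. Nfatc1, the factor that directs osteoclast formation, was lower in osteoblasts, at 17.5 ± 1.21 RPKM against 64.2 ± 24.1 RPKM in chondrocytes (SD, n = 3 each; log2 difference -1.75). Of the defining markers, Calcr (the calcitonin receptor) and Siglec15 were listed at the floor in all 6 libraries, and Dcstamp, a fusion protein, in all 3 osteoblast libraries. Ocstamp, its partner in fusion, was listed at 0.0738, 0.227 and 0.0190 RPKM in osteoblasts and at the floor in the 3 chondrocyte libraries. Atp6v0d2, a proton pump subunit of osteoclasts, was at 0.0922, 0.142 and 0.0888 RPKM in osteoblasts and at the floor in chondrocyte replicates 1 and 3. Without a filter 9 of 12 were higher and 1 was lower, beside 41.9% and 11.0% of all genes. The median was then 0.40 against 0.15 for all genes. With any one osteoblast library left out 4 passed and 3 were higher. Only 3 of the 11 osteoclast genes above the floor in chondrocytes were highest there in replicate 3. The list summed to 56.9 to 67.3 RPKM in osteoblasts and 56.5 to 107 RPKM in chondrocytes, Nfatc1 included. Nfatc1 alone was at 18.9, 16.7 and 17.0 RPKM in osteoblasts and 90.8, 43.6 and 58.3 RPKM in chondrocytes. It made up most of the chondrocyte sums, which thus do not show the level of the other genes. Without chondrocyte replicate 3, the called higher genes were 7 of 8 for macrophages, 3 of 3 for leukocytes, 4 of 5 for the ITAM list and 5 of 6 for osteoclasts, beside 57.1% of all 10933 genes then tested, and the filter acts on these counts in the same way.

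Cd68, Laptm5, Ctsk and Acp5 encode proteins of lysosomes or their secreted kin, so 18 lysosomal genes of many cell types were set beside them. Of these 8 were higher in osteoblasts, 1 was lower (Hexa, -0.67) and 9 were not called, under the 55.5% higher and 13.5% lower of all tested genes, with a median log2 difference of 0.33 against 0.43 for all tested genes. Under median-of-ratios scaling 5 were higher and 7 were lower, where 3630 of 11169 genes were higher and 3290 lower. The cytokines that feed the lineage, which stromal cells make, were also read: Csf1 was at 24.6, 24.3 and 21.2 RPKM in osteoblasts and 4.95, 2.77 and 6.76 RPKM in chondrocytes (2.12). Tnfsf11, which encodes RANKL, was at 7.25, 5.20 and 5.28 RPKM in osteoblasts and 0.0134, 0.0798 and 0.0872 RPKM in chondrocytes (2.69). Tnfrsf11b, the RANKL decoy, was lower in osteoblasts (-0.90). Of the 7 genes of this list 6 were tested, 4 were higher and 1 was lower, near the 55.5% and 13.5% of all tested genes. Under median-of-ratios scaling 3 were higher and 1 was lower. Tnfsf11 reached 1 RPKM in osteoblast libraries only, so the filter builds in part of its direction.

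Genes of other blood and tissue cells followed several patterns. Of 11 neutrophil genes 0 passed the filter, and they summed to 1.79, 0.855 and 0.248 RPKM in osteoblasts and 0.00110, 0.572 and 0.0102 RPKM in chondrocytes. Of 12 lymphoid genes 0 passed, and they summed to 0.460 to 0.711 RPKM in osteoblasts and 0.0821 to 0.214 RPKM in chondrocytes. The mast cell proteases Cpa3, Mcpt4, Cma1 and Tpsb2, picked out after their values were seen, summed to 7.83, 0.504 and 13.3 RPKM in osteoblasts and at most 0.160 RPKM in chondrocytes. None of them passed the filter, and without it their adjusted p ran from 0.0446 (Cma1) to 0.0795 (Cpa3) (limma). Kit, in the list they were taken from, overlapped between groups, at 0.134, 0.138 and 0.186 RPKM in osteoblasts and 0.138, 0.0632 and 0.205 RPKM in chondrocytes. Fcer1g, which mast cells also use, was at 2.58, 3.42 and 4.55 RPKM in the osteoblast libraries, and the part of mast cells in it was not tested. Pf4, a chemokine of platelets that macrophages make too, was at 7.30, 5.14 and 9.56 RPKM in osteoblasts and 0.960, 0.151 and 3.03 RPKM in chondrocytes (1.96), the same order of chondrocyte libraries as C1qa. That order is weak evidence of a shared source, since 46.9% of all tested genes were highest in chondrocyte replicate 3. Only this chondrocyte library reached 1 RPKM of Pf4, so the filter builds in part of its direction. Gp1bb, the other of the 2 tested genes of this list, overlapped between groups and was not called (0.09; limma, adjusted p = 0.745). Globin and other red cell genes summed to 29.0, 64.2 and 40.9 RPKM in osteoblasts and 5.45, 29.1 and 20.2 RPKM in chondrocytes, and only Hba-a1 of 4 tested was called (1.37; limma, adjusted p = 0.0235), a call lost under median-of-ratios scaling (0.95; limma, adjusted p = 0.129) and without osteoblast replicate 2 or 3. Without chondrocyte replicate 2, 2 red cell genes were called. The globin copies are near-identical, so their division is uncertain. Endothelial genes summed to 12.9, 14.0 and 11.0 RPKM in osteoblasts and 28.7, 27.9 and 34.3 RPKM in chondrocytes, but only Erg, also known from cartilage, was called lower (-1.39), of 2 tested. Without Erg the sums overlapped, at 2.45 to 5.72 RPKM in osteoblasts and 4.37 to 8.35 RPKM in chondrocytes. Erg was not alone, however. For 3 of the 10 endothelial genes every chondrocyte library lay above every osteoblast library, and for 0 the other way. Pecam1 did not pass the main filter. It was lower in osteoblasts without a filter (-0.80; limma, adjusted p = 0.0323) and under median-of-ratios scaling (-0.98; limma, adjusted p = 0.00742). Muscle genes summed to 1.83 to 2.08 RPKM in osteoblasts and 9.87 to 41.3 RPKM in chondrocytes, and Tnnt3, a troponin, made up the gap. Without Tnnt3 they summed to 0.833 to 1.22 RPKM in osteoblasts and 0.706 to 1.18 RPKM in chondrocytes. Of 12 fibroblast and perichondrium genes 8 were higher and 2, Fn1 and Tnmd, were lower in osteoblasts (-2.04 and -2.27). These counts stood near the 55.5% higher and 13.5% lower of all tested genes. Under median-of-ratios scaling 6 of the 12 were higher and 3 were lower, where 3630 of 11169 genes were higher and 3290 lower. The 12 genes summed to 33921 to 37815 RPKM in osteoblasts and 7437 to 20848 RPKM in chondrocytes, mostly Col1a1 and Col1a2, which osteoblasts make for bone. Without these collagens the sums overlapped, at 3546 to 5055 RPKM in osteoblasts and 3194 to 6508 RPKM in chondrocytes, with chondrocyte replicate 3 the highest. The part of macrophages, osteoclasts, mast cells or fibrous tissue in the members' values was not tested.

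**Figure D4:**
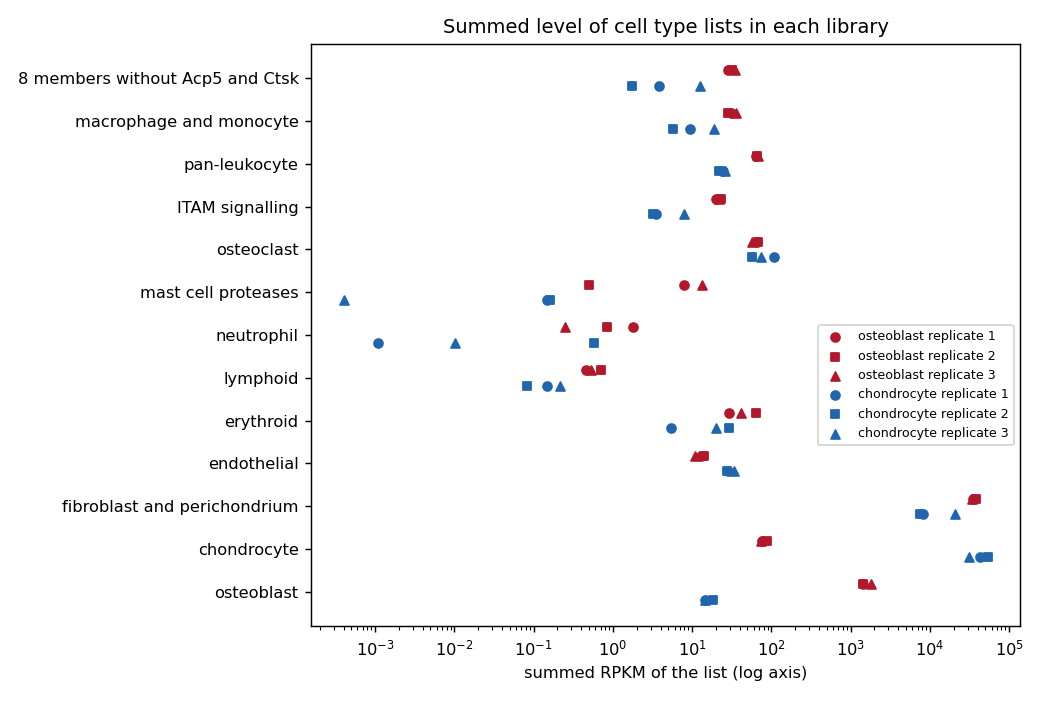
Summed RPKM of 13 gene lists in each library on a log axis, osteoblasts above chondrocytes in each row. The 8 blood-cell members lie at 28.7 to 34.7 in osteoblasts and 1.72 to 12.6 in chondrocytes, the mast cell proteases range from 0.504 to 13.3 among osteoblasts, and chondrocyte replicate 3 is at the table's floor for them.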

How the data were processed

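RNA of 6 libraries (3 osteoblast, 3 chondrocyte) was measured by RNA-seq. The authors deposited 1 table of RPKM per RefSeq transcript, in which no value lies under 0.0001, the floor of the table. Alignment tool and build are TopHat2 2.0.8 and mm9, per the submitters' processing notes. The sources used here do not name the counting program. The 6 columns of values were tied to samples by their header names. RPKM was summed over transcripts of a symbol (18917 symbols with 1 transcript, 4447 with several). Genes with 3 or more libraries at 1 RPKM were tested on log2(RPKM + 1) by limma 3.58.1 (R 4.3.3), with trend and robust moderation, two-sided, and Benjamini-Hochberg adjustment over all genes tested; the scale understates changes of low genes. Differences are osteoblast minus chondrocyte. The procedure was tested on simulated data. Read totals were estimated from steps of low values and transcript lengths in GENCODE M21: 59.2% of 16556 low values fell within 0.05 of a whole read, against 10% by chance, and the totals were fitted to these values. Reads per transcript follow from those totals and lengths. Cd68 had no matching length. Older symbols were matched through known or RefSeq synonyms, and Ly6g and Ahsp had no match.

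The members and all gene lists were chosen with earlier results of these data known. The text names all members, and the rule for other lists takes the 3 genes of highest mean RPKM, up to 2 called genes of largest difference and those at the floor in all libraries where 5 or fewer, with Sp7 and Col2a1 as a label check. The text leaves out some of these, and names others, among them the mast cell proteases as a group, chosen with values in view. Some genes of the lists are not reported here. Alternatives were pseudocounts of 0.1 and 5, other filters, median-of-ratios scaling, plain moderation, a replicate block, 1 transcript per symbol and each library left out.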

Additional observations from a re-analysis of the deposited data

How the results depend on the processing

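No member changed direction under any of the 14 alternatives in which it was tested. Of 115 values of single members, 109 stayed on their side of the threshold and 6 did not, all of Ctsk, whose adjusted p was then 0.0579 to 0.0834 (limma). Counts below are of genes higher in osteoblasts unless stated. Leaving out 1 library gave 7 to 9 members, 3 to 7 macrophage genes, 2 to 3 general leukocyte genes, 0 to 4 ITAM genes and 3 to 5 osteoclast genes. It gave 4573 to 6313 genes in all, and 1003 to 1635 lower. Cd68 was not tested when any osteoblast library was left out, since the filter then needs a chondrocyte library too. Without chondrocyte replicate 2 the log2 difference of every tested member was smaller than with all libraries. It was 1.74 for Lyz2, 1.64 for C1qa and 1.21 for Laptm5, against 2.10, 2.01 and 1.47. Without chondrocyte replicate 3 it was larger for every tested member, at 2.56, 2.47 and 1.86 for these 3 genes. When mean RPKM had to reach 5, only Ctsk was left of the members (1 call), with 0 macrophage genes higher and 0 lower, 1 general leukocyte gene, 0 ITAM genes and 2 osteoclast genes, and 4092 genes higher and 885 lower in all. With no filter the counts were 17 macrophage, 13 general leukocyte, 11 ITAM and 9 osteoclast genes, since more genes were tested. Median-of-ratios scaling gave 8 members, and 3630 genes higher and 3290 lower. With the replicate number as a block, 9 members, 5892 genes higher and 1376 lower were called. Deviations of same-numbered libraries correlated across genes at 0.079, 0.010 and -0.155, and those of differently numbered libraries at -0.150 to 0.126. No pairing by number was seen, but 3 libraries per group are too few to exclude one. The lowest values rest on few reads, such as 3.0 for Tyrobp in chondrocyte replicate 2, and differences between libraries at that level are imprecise. With the block 3 red cell genes were called higher, against 1 without it. For the other lists, 27 of 308 counts under alternatives moved by more than 1.5 times.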
